A study of Mus musculus with 4 samples.

Results

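Astrocytes are the glial cells that clear glutamate and potassium from around synapses, supply neurons with metabolites and cover blood vessels with their endfeet. They arise from radial glia around birth, and in the weeks that follow they switch on transporters, channels and gap junction proteins. Such genes were followed here in the developing pontine nucleus, the ventral pontine cell group that sends mossy fibres to the cerebellum. The set held 35 genes, chosen by name as genes of astrocyte maturation, out of 19938 genes with a probe set carrying a single gene symbol. All 35 were on the array; where several probe sets carried the symbol, that of the highest mean signal stood for the gene.

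The tissue was the pontine nucleus of ICR mice, for which the labels name no mutation and no treatment. It was dissected at embryonic day 17.5 (E17.5) from 27 mice and at postnatal days 1, 5 and 14 (P1, P5 and P14) from 16, 13 and 12 mice. The mice of an age were pooled and hybridised to 1 Affymetrix array, so there was 1 array per age and no replicate. No test between ages could be run, and the number of arrays limits the precision of every value. All values are log2 signals per probe set as the authors normalised them, so a difference of 1 is 2-fold. A probe set's signal also depends on its probes, so levels of different genes are not compared.

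Barhl1, a homeobox factor of pontine neurons, stood at 12.23, 11.79, 10.83 and 11.61 on the arrays labelled E17.5, P1, P5 and P14. The arrays did not follow their labelled order: over 10901 genes Pearson's r with E17.5 was 0.968 for P1 and 0.754 for the P5-labelled array, with the P14-labelled array between at 0.909. Of 2120 genes whose highest and lowest arrays were 2-fold apart, 1825 (86.1%) had their P14-labelled value between the other postnatal ones. The labels are kept as given, and every direction drawn from these last arrays rests on them. Error could be measured only as the disagreement of probe sets for 1 gene, over 645 genes. It gave a standard deviation of 0.12 for a difference of P1 from E17.5, 0.18 for P5 from P1 and 0.10 for P14 from P1, and it leaves out the spread between pools.

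Astrocyte genes were lowest at E17.5 and stood higher after birth with few exceptions. At E17.5 lay the lowest value of 33 of the 35 genes, against 25.4% of the 10901 genes whose highest array reached 8.41, the level used as a filter. All 35 passed that filter, although Gjb6, Itih3, Gpc5 and Cldn10 did so through the P5-labelled array alone. The highest value of 30 genes was on the P5-labelled array, Id3 there tied with the P14-labelled array, against 39.9% of all genes. It was 11 genes when the arrays were centred on the median level of housekeeping genes, and 22 on those genes' own deviations. Only 2 genes, Slc1a3 and Aqp4, had the order of the labels, with values climbing from E17.5 through P1 and P5 to P14. Their last step was 0.01 each, under the probe set spread of 0.14 for P14 from P5. In 27 genes the order was E17.5, P1, P14, P5. No share of all genes is given for these full orders. Of the 27 genes with a 2-fold range, 25 had the P14-labelled value between the other postnatal ones, close to the share in all genes, and 1 (Aqp4) had the P5-labelled value between P1 and P14 (5.66% of all such genes). In pooled tissue, fewer astrocytes and less RNA per astrocyte cannot be told apart.

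**Figure D1:**
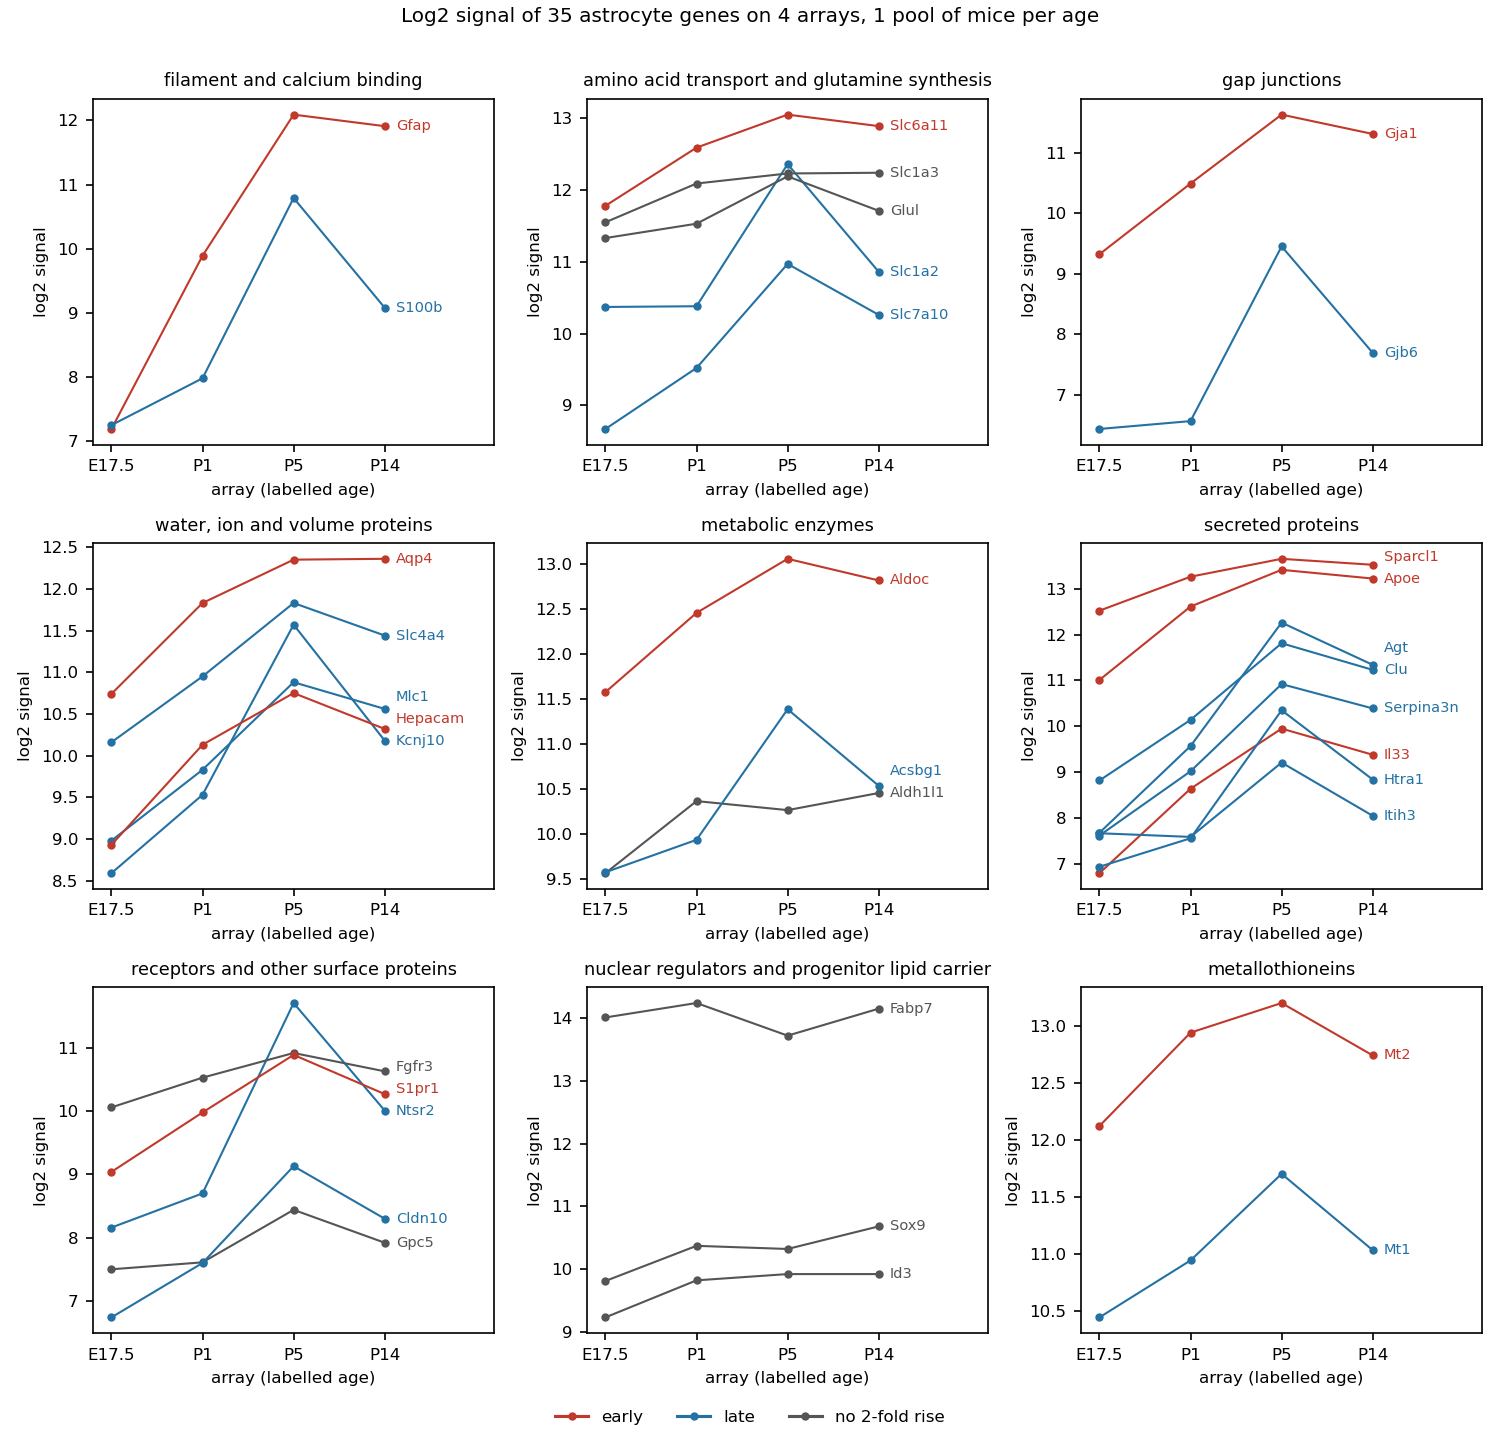
Log2 signal (vertical axis) of the 35 genes on the 4 arrays in the order of their labels (horizontal axis), in 9 panels by role; each point is 1 array of 1 pool, and colours mark the classes early, late and no 2-fold rise. On this scale 30 of 35 genes peak on the P5-labelled array, Id3 tied with P14, while Sox9, Id3 and Fabp7 stay within a range of 0.87. Centred on the median level of housekeeping genes 11 peak there, and on those genes' own deviations 22.

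At P1, 9 of 35 genes were at least 2-fold higher than at E17.5, against 0.826% of all genes, and none was 2-fold lower (0.275% of all genes). The median difference was 0.80, with −0.06 for all genes, and 34 of 35 differences were above 0. Against P1, the P5-labelled array was at least 2-fold higher in 17 of 35 genes (8.96% of all genes) and 2-fold lower in none (3.94%), with a median of 0.91 against 0.05. The P14-labelled array was at least 2-fold higher than P1 in 8 (1.37% of all genes) and 2-fold lower in none (0.101%), with a median of 0.49 against −0.01. Set against each other, the P14-labelled array was 2-fold lower than that labelled P5 in 7 genes (4.5% of all genes) and 2-fold higher in none (2.16%), with a median of −0.48 against −0.07. Relative to E17.5, 27 genes were at least 2-fold higher on the P5-labelled array (11.3% of all genes) and 22 on the P14-labelled array (4.55%). None was 2-fold lower than at E17.5 on either (5.5% and 1.19% of all genes). The medians were 1.82 and 1.26, and those of all genes −0.02 and −0.08. These comparisons share arrays with each other, so their counts are not independent. Gjb6, Itih3 and Cldn10, which passed the filter through the P5-labelled array alone, are among the 17 and the 27 genes higher on it. Gjb6 and Itih3 are also among the 7 genes lower on the P14-labelled array.

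These counts depend on how the arrays are scaled. The 8 housekeeping genes on the array were not all level themselves: 3 were risers. Their own median difference for P5 from P1 was 0.34. When each array was centred on the median level of these 8 housekeeping genes, every difference of P5 from P1 fell by 1.015, more than that 0.34. The median of all genes was then −0.99. On that scale the astrocyte median was −0.035, so it stayed above that of all genes while its sign turned. Of the 34 genes past the filter on that scale, 7 were 2-fold higher for P5 from P1, against 1.76% of all genes. Another 3 were 2-fold lower (Fabp7, Aldh1l1 and Sox9), where 49.3% of all genes were. For P14 from P1, 2 were 2-fold higher (0.317% of all genes) and none lower (0.951%). For P5 from E17.5, 14 were higher (2.54% of all genes) and 1 lower (Fabp7, against 60.1%), and every difference fell by 1.08. For P14 from P5, 1 was higher (15.2% of all genes) and 3 lower (Gjb6, Ntsr2 and S100b, against 1.34%). A shift is the same for every gene, so each positive difference smaller than it, for a gene or a list, is negative on that scale. Differences of P1 from E17.5 fell by only 0.065 on the same scale, and the count at P1 stayed within 1.5-fold of the one given.

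The genes were then split by how soon they were up. A gene was counted as a riser when its highest array lay at least 1 above E17.5, and as early when P1 had reached at least 50% of that rise on the log2 scale. This measure does not use the order of the arrays labelled P5 and P14. Risers made up 27 of the 35 genes (11.9% of all genes), 11 of them early and 16 late. The late ones include Gjb6, Itih3 and Cldn10, which passed the filter through the P5-labelled array alone. Early genes were thus 40.7% of the astrocyte risers, while 159 of 1302 risers among all genes were early (12.2%). At P1 the astrocyte risers had reached a median of 44.1% of their rise, and risers among all genes 18%. Since the classes were made from these values, differences between them at E17.5, P1 and the highest array are a description.

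The split depends on where it is drawn. Just inside the early class lay Gja1 at 50.6% and S1pr1 at 50.8%, and just outside it Slc4a4 at 47.3% and Mlc1 at 44.7%. Mt2 and Sparcl1 were risers by 1.08 and 1.13, while Gpc5 at 0.94 and Aldh1l1 at 0.89 were not. On linear signals, where the last doubling weighs most, 5 genes were early: Aqp4, Hepacam, Mt2, Slc6a11 and Sparcl1. Centred on housekeeping genes, 17 genes were risers and 12 early, and Aldoc, Mt2, S1pr1, Slc6a11 and Sparcl1 were no longer among the early ones. Centred on the housekeeping genes' own deviations, 10 of 23 risers were early, 8 of them among the 11 early genes. Without the P5-labelled array, 18 of 22 risers were early, 10 of the 11 early genes among them.

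**Figure D2:**
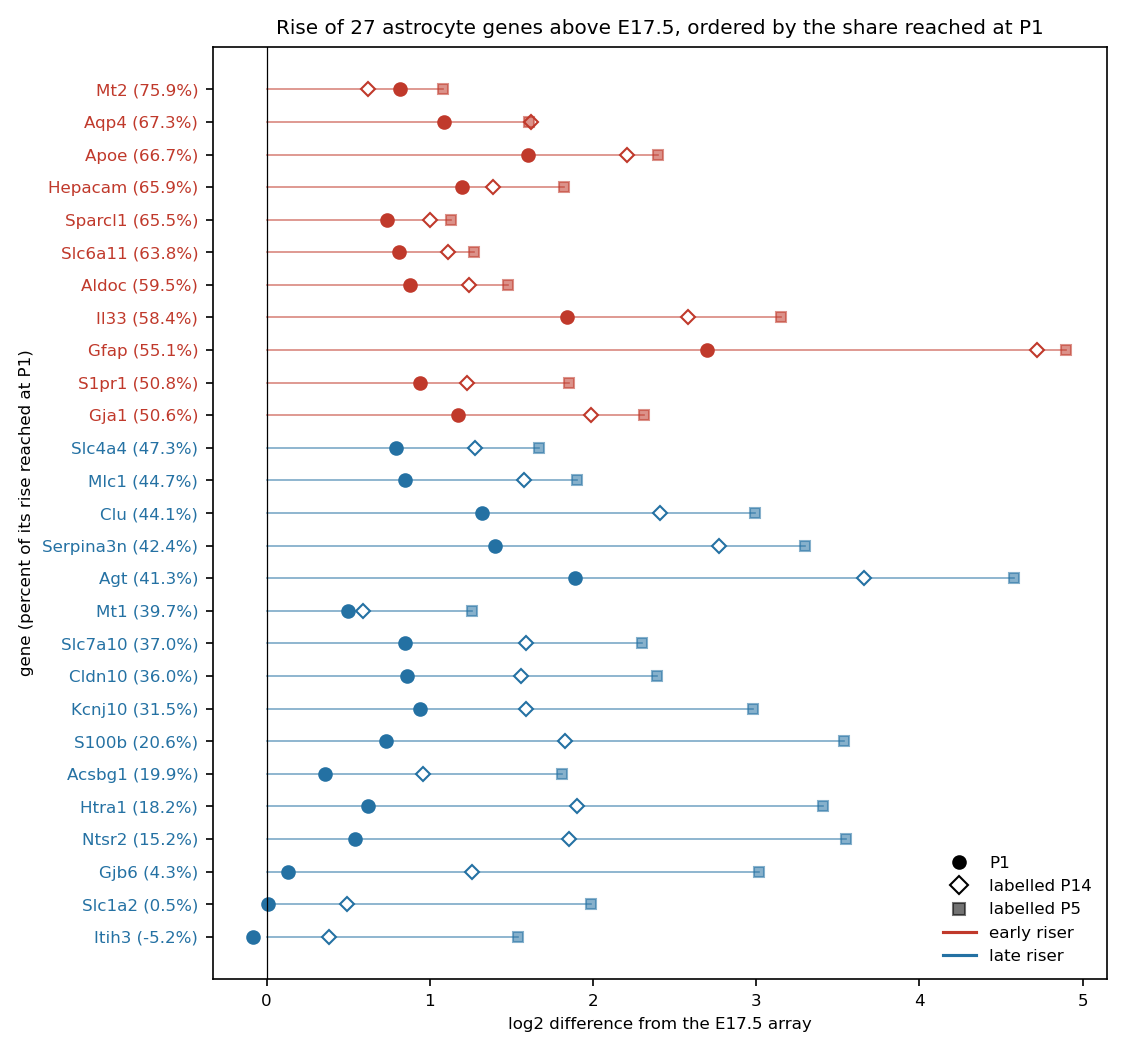
Log2 difference from the E17.5 array (horizontal axis) of the 27 risers, ordered from top to bottom by the percent of the rise reached at P1, which follows each name; circles are P1, diamonds the P14-labelled array, squares the P5-labelled array, each a single array. From Mt2 at 75.9% the order runs down to Itih3 at −5.2%, and the diamonds of the late genes lie at 24.6 to 83.9% of the rise.

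Gfap and Agt had the widest ranges of the set, with Gfap early and Agt late. At a share of 1/3, without the P5-labelled array or centred on housekeeping genes both were early, and at 2/3 or on linear signals neither was. Gfap encodes the intermediate filament protein of astrocytes. Its log2 signal was 7.19 at E17.5 and 9.89 at P1, then 12.09 (P5-labelled) and 11.91 (P14-labelled). P1 had 55.1% of the rise and the P14-labelled array had 96.3%, so the later arrays were nearly level with each other. Agt encodes angiotensinogen, which astrocytes make in the brain. Agt read 7.68, 9.57, 12.26 and 11.34 in the same order, with 41.3% of its rise at P1 and 79.9% on the P14-labelled array. Both started under 8.41, so the sizes of their rises are inexact. Between P1 and the P5-labelled array, where both were well above that level, Gfap was 4.59-fold and Agt 6.45-fold higher.

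To show what lies before the start sites of the genes with the widest ranges, 250 bases are given from RefSeq (GRCm38.p6), for Gfap at chr11:102897201-102897450 on the minus strand and for Agt at chr8:124569707-124569956 on the minus strand. Promoter windows were found for 30 of the 35 genes, as 37 windows. Capitals mark matches, on either strand, to the STAT motif TTCNNNGAA, the NFI motif TTGGCA, the metal response element core TGCGCNC or TGCACNC, or the SOX motif ACAATGG.
Gfap: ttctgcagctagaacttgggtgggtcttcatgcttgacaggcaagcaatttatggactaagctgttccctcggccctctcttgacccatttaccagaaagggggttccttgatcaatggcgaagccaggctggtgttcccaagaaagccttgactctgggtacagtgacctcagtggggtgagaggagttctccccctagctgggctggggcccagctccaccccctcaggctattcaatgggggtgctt
Agt: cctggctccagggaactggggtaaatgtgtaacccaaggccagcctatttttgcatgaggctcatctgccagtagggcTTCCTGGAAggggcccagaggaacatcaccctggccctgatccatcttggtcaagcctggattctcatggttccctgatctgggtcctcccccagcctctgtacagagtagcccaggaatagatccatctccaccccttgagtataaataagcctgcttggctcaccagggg
Gfap held no match to these letters in the window, and Agt held a STAT match (TTCCTGGAA) that begins 172 bases before the start. STAT matches were present in 5 of the 37 windows (13.5%), against 7.02% of 32851 windows of all genes. By class, 1 of 8 early and 3 of 15 late genes with a window held one. NFI matches were present in 6 of 37 (16.2%, against 12.3%), in 4 of 8 early and 2 of 15 late genes with a window. No SOX match was found in these windows (3.02% of all windows). E-boxes (CANNTG) were present in 23 of 37 windows, or 62.2%, beside 66.2% of all windows, in 6 of 8 early and 11 of 15 late genes. Metal response element cores were present in 7 of 37 (18.9%, against 21.4%), in 2 of 8 early and 4 of 15 late genes. Whether any motif differed between the classes was not tested. All are matches of letters, not sites.

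Proteins of the water, ion and volume system were all risers. Aqp4, the water channel of endfeet, stood at 10.74, 11.83, 12.35 and 12.36. It was already 2.13-fold higher at P1, and the arrays labelled P5 and P14 differed by 0.01, far less than the probe set spread. Hepacam, the adhesion protein that carries Mlc1 to cell junctions, stood at 8.93, 10.13, 10.75 and 10.32, with 65.9% of its rise at P1. Mlc1, its membrane partner in volume regulation, stood at 8.98, 9.83, 10.88 and 10.56, with 44.7%. The bicarbonate cotransporter Slc4a4 was close to it, at 10.16, 10.95, 11.83 and 11.44. Kcnj10, the Kir4.1 channel that takes up potassium, had the same order of arrays with a larger step to the P5-labelled array: 8.59, 9.53, 11.57 and 10.18. It was 4.11-fold higher on the P5-labelled array than at P1, and 2.62-fold lower again on the P14-labelled array. Among partners that anchor these proteins the steps were smaller: of 6 endfoot and volume genes past the filter, none was 2-fold apart between P1 and either neighbour, with medians of 0.17 at P1 and −0.07 for P5 from P1. Dtna and Utrn, of the dystrophin complex, were 2-fold higher on the P5-labelled array than at E17.5 (1.07 and 1.02), less than the shift of 1.08 under housekeeping centring.

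The gap junction proteins of astrocytes fell in different classes, with Gja1 just inside the early one. Gja1, connexin 43, which couples astrocytes from early stages, stood at 9.32, 10.49, 11.63 and 11.31, a 2.25-fold step at P1 and a 2.20-fold step to the P5-labelled array. Gjb6, connexin 30, known as a connexin of mature astrocytes, stood at 6.43, 6.56, 9.45 and 7.69. Its difference at P1 (0.13) was about the size of the probe set spread, and nearly the whole of its rise was on the P5-labelled array. Of 5 other connexins past the filter, the P5-labelled array exceeded P1 at least 2-fold in 4, led by Gjc3 (2.84) and Gjb1 (2.42), which are connexins of the oligodendrocyte lineage. The fifth, Gjc1, was 2-fold lower there (−1.26).

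Genes for transmitter uptake spread over all 3 classes. Slc1a3, the glutamate transporter GLAST of radial glia and astrocytes, stood at 11.55, 12.09, 12.23 and 12.24 and was no riser. Slc1a2, the transporter GLT-1 that takes over with maturity, stood at 10.37, 10.38, 12.36 and 10.86. E17.5 and P1 were alike for Slc1a2 within 0.01, the P5-labelled array was 3.94-fold higher than P1, and that labelled P14 only 1.39-fold. The GABA transporter Slc6a11 was an early riser at 11.78, 12.59, 13.05 and 12.89. Slc7a10, which exchanges small neutral amino acids such as serine and glycine, was late at 8.67, 9.52, 10.97 and 10.26. Glul, glutamine synthetase, stood at 11.33, 11.53, 12.19 and 11.71. Its other probe set read 10.88, 11.22, 11.71 and 11.46, so neither reached a 2-fold rise. Of 9 other genes of glutamate and glutamine handling, none was 2-fold apart at P1 or between P1 and the P5-labelled array. Their median was 0.33 at P1 and 0.15 for P5 from P1. The largest differences at P1 were those of Slc6a9 (0.76), a glycine transporter, and Glud1 (0.63), glutamate dehydrogenase.

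Among metabolic enzymes, Aldoc, the aldolase isoform of astrocytes, was early at 11.58, 12.46, 13.06 and 12.82. Acsbg1, an acyl-CoA synthetase, was late at 9.58, 9.94, 11.39 and 10.54, being 2.73-fold higher on the P5-labelled array than at P1. Aldh1l1, a folate enzyme widely used to mark all astrocytes, was no riser. It stood at 9.57, 10.37, 10.27 and 10.46, and its 0.80 difference at P1 was nearly the whole of its range.

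Secreted and related proteins made up 5 of the 9 genes at least 2-fold higher at P1: Apoe, Clu, Il33, Agt and Serpina3n. Apoe, the lipid carrier, stood at 11.01, 12.61, 13.41 and 13.22, 3.03-fold higher at P1 and early with 66.7%. Clu, a secreted chaperone also called apolipoprotein J, stood at 8.82, 10.14, 11.81 and 11.23, 2.50-fold higher at P1 and 3.18-fold higher again on the P5-labelled array. Il33, a nuclear cytokine of glia, stood at 6.80, 8.64, 9.95 and 9.38. Sparcl1, the synapse-promoting protein hevin, was early at 12.52, 13.26, 13.65 and 13.52. Serpina3n, a protease inhibitor, was late at 7.62, 9.02, 10.92 and 10.39. Htra1, a secreted protease, and Itih3, which binds hyaluronan, had their largest step from P1 to the P5-labelled array. The 4 values were 6.94, 7.56, 10.35 and 8.84 for Htra1. They were 7.67, 7.59, 9.21 and 8.05 for Itih3, the only gene of the set lowest at P1.

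Receptors and surface proteins held both genes with no 2-fold rise and the largest step of the set. Ntsr2, the neurotensin receptor of astrocytes, stood at 8.16, 8.70, 11.71 and 10.01. It was 8.06-fold higher on the P5-labelled array than at P1 and 3.25-fold lower on the P14-labelled array. S1pr1, a sphingosine phosphate receptor shared with endothelium, stood at 9.04, 9.98, 10.89 and 10.27. Fgfr3, a growth factor receptor already present in progenitors, stood at 10.06, 10.53, 10.92 and 10.63 and was no riser. Cldn10, a claudin, stood at 6.74, 7.60, 9.13 and 8.30, and its second probe set at 6.99, 7.49, 8.87 and 8.08. Gpc5, a glypican, stood at 7.5, 7.61, 8.44 and 7.92. Levels of Cldn10 and Gpc5 lay under 8.41 on 3 of the 4 arrays, so their differences are inexact. S100b, a calcium-binding protein that oligodendrocytes also make, had values of 7.25, 7.98, 10.79 and 9.08, and was 3.27-fold lower on the P14-labelled array than on that labelled P5.

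The regulators and the progenitor gene had small ranges. Sox9, the transcription factor that sets up the glial fate, stood at 9.81, 10.37, 10.32 and 10.68. On the deposited scale it was lowest at E17.5 by more than the probe set spread, which leaves out the spread between pools. Id3, an inhibitor of basic helix-loop-helix factors, stood at 9.23, 9.82, 9.92 and 9.92, with a 1.51-fold difference at P1. Fabp7, the fatty acid binding protein of radial glia, stood at 14.01, 14.24, 13.72 and 14.15. Fabp7 was the only gene lowest on the P5-labelled array, where it was 1.43-fold below P1. None of these 3 genes reached 2-fold in any comparison on the deposited scale. Centred on housekeeping genes, Sox9 (−1.065) and Fabp7 (−1.535) were 2-fold lower for P5 from P1, as were 49.3% of all genes. The median of all genes on that scale was −0.99, so Sox9 lay close to it.

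Mt1 and Mt2 encode metallothioneins, small zinc-binding proteins, and are neighbours on chromosome 8. Mt1 stood at 10.44, 10.94, 11.70 and 11.03 and was late, with 39.7% of its rise at P1. Mt2 stood at 12.12, 12.94, 13.20 and 12.74 and had the highest share of the set at P1, 75.9%. Both rises were small, 1.26 and 1.08. Mt2 was also the only riser lower on the P14-labelled array than at P1, by 0.20. Because they are neighbours of different class, the bases before their start sites are shown with the same motifs in capitals, taken at chr8:94178839-94179088 for Mt1 and chr8:94172368-94172617 for Mt2, both on the plus strand of GRCm38.p6.
Mt1: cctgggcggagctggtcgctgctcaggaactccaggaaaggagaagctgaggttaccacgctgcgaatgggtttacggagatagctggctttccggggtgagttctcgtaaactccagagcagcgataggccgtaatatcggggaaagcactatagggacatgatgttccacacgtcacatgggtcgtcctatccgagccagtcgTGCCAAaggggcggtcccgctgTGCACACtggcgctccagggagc
Mt2: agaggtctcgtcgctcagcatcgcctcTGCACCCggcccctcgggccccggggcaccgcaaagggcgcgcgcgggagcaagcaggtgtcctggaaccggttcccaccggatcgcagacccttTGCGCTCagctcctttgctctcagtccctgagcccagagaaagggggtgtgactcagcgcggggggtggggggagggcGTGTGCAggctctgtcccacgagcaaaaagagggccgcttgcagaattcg
Mt2 held 3 matches to the metal response element core, the element bound by the zinc-sensing factor Mtf1, and Mt1 held 1, beside an NFI match on the minus strand. Such matches were present in 21.4% of all windows and in 7 of the 37 windows of the astrocyte genes (18.9%). The counts for Mt1 and Mt2 hold only for the bases shown. Whether they bear on the difference in class was not tested. Of 7 other metallothionein and zinc genes, the brain metallothionein Mt3 alone was 2-fold higher for P5 from P1 (1.08), and the median was 0.01 at P1 and 0.11 for P5 from P1.

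**Figure D3:**
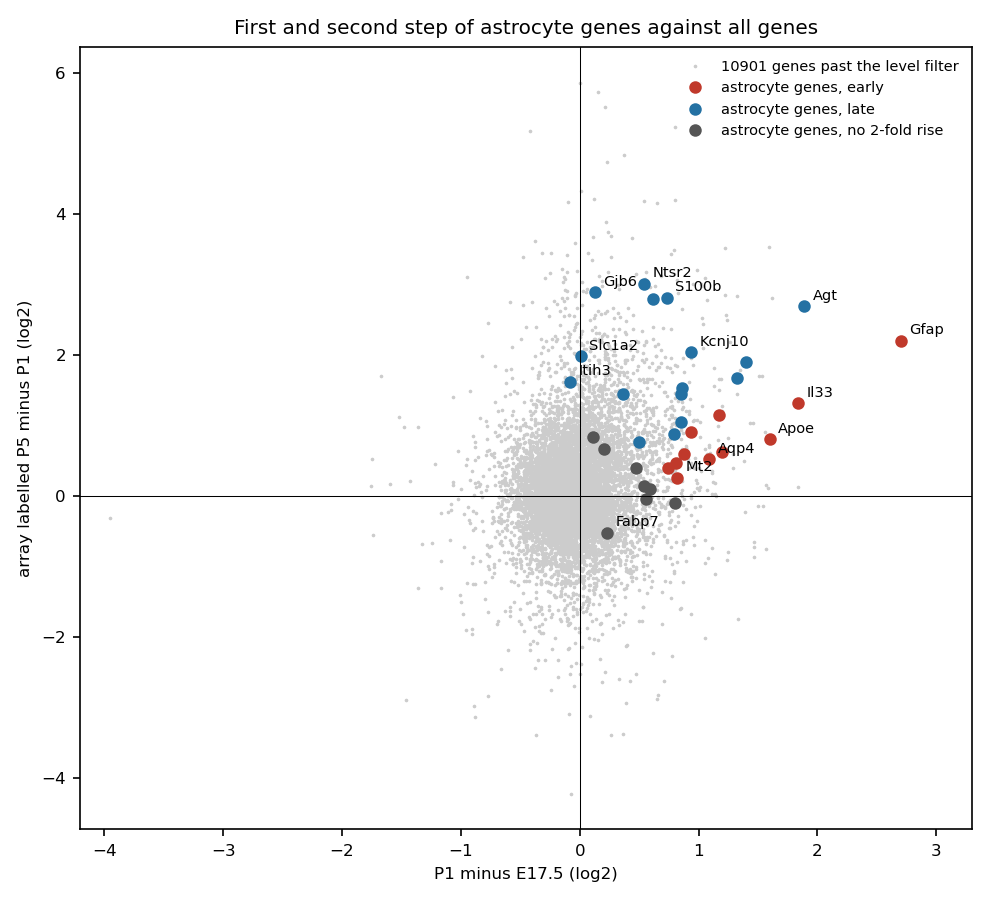
Difference of P1 from E17.5 (horizontal axis, log2) against that of the P5-labelled array from P1 (vertical axis, log2); grey dots are the 10901 genes past the level filter and large dots the 35 astrocyte genes by class, each from single arrays. Early genes such as Apoe lie to the right (1.60 and 0.80), late genes such as Gjb6 and Slc1a2 lie high near the left (0.13 and 2.89, 0.01 and 1.98). Gjb6 passed the filter through the P5-labelled array alone.

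The values on the P14-labelled array are given by class as a description, since they are set against the same E17.5 and highest values that made the classes. On that array, early genes had 57.4 to 100% of their rise, with a median of 86.1%, and late genes 24.6 to 83.9%, with a median of 54.55%. S100b, Slc1a2, Gjb6, Kcnj10, Htra1, Itih3 and Ntsr2 were the 7 genes at least 2-fold lower on it than on the P5-labelled array. All are late, which the rule favours, because a high P5-labelled value enters both measures, and Gjb6 and Itih3 passed the filter through that array alone. At E17.5, 8 of 16 late genes and 2 of 11 early genes (Gfap and Il33) were under 8.41, where the size of a rise is inexact. The part of this in the split was not tested.

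Other astrocyte genes, listed with results of these arrays known, gave like medians. Of 30, 29 were on the array and 26 past the filter. Their medians were 0.66 at P1 and 0.66 again for P5 from P1, with 7 genes at least 2-fold higher in each comparison. Risers numbered 19, of which 7 were early (36.8%). Gpr37l1, an astrocyte receptor, led at P1 (1.22), and Fam107a (3.35) and Gpr37l1 (2.85) led on the P5-labelled array. The summed linear signal of the 35 genes was 1.58 times that of E17.5 at P1, 2.45 times on the P5-labelled array and 1.99 times on that labelled P14. For the other astrocyte genes these ratios were 1.55, 2.48 and 1.97.

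Genes of radial glia and immature astrocytes had lower medians. Of 17 past the filter, 1 was 2-fold higher at P1, the endothelin receptor Ednrb (1.29), and the median was 0.28. Between P1 and the P5-labelled array the median was −0.21, and 3 of 17 were at least 2-fold lower while Prom1 was higher (1.25). Tnc, the matrix protein tenascin C, had the largest drop (−2.62), followed by the RNA-binding protein Msi1 (−1.08). Signals and factors of astrocyte differentiation, such as Stat3 and the NFI genes, were not higher as a group: the median of 13 was −0.05 at P1 and −0.18 for P5 from P1, with Bmp4 2-fold higher in both comparisons (1.35 and 1.78) and Nfib 2-fold lower in the second (−1.20).

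Markers of other cell types moved on the same arrays. The summed linear signal of 11 myelin genes, relative to E17.5, was 1.59 at P1, 25.5 on the P5-labelled array and 3.44 on that labelled P14. All 11 were at least 2-fold higher on the P5-labelled array than at P1, with a median of 4.32, and none of the 11 risers was early. For 10 microglial genes past the filter the median was 0.54 at P1 and 0.71 for P5 from P1, with 1 of 9 risers early. For P5 from P1, the 12 mature neuron genes had a median of 2.64, with 9 at least 2-fold higher, and 11 young neuron genes one of −1.81, with 9 at least 2-fold lower. The 10 genes of oligodendrocyte precursors had medians of 0.74 at P1 and 1.31 for P5 from P1, with 1 of 8 risers early. Of 9 mural and meningeal genes past the filter, 2 differed by 2-fold or more for P5 from P1, both upward, with medians of −0.05 at P1, 0.83 for P5 from P1 and 0.65 for P14 from P1. Of 4 red cell genes on the array, 1 passed the filter. Endothelial genes had a median of −0.08 at P1 and 0.44 for P5 from P1, with 0 of 10 at least 2-fold apart. No choroid plexus or ependymal gene of 10 passed the filter. Several of the astrocyte genes are known in other cells too, S100b and Kcnj10 in oligodendrocytes, Apoe in microglia and S1pr1 in endothelium. How much of each signal came from those cells was not tested.

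**Figure D4:**
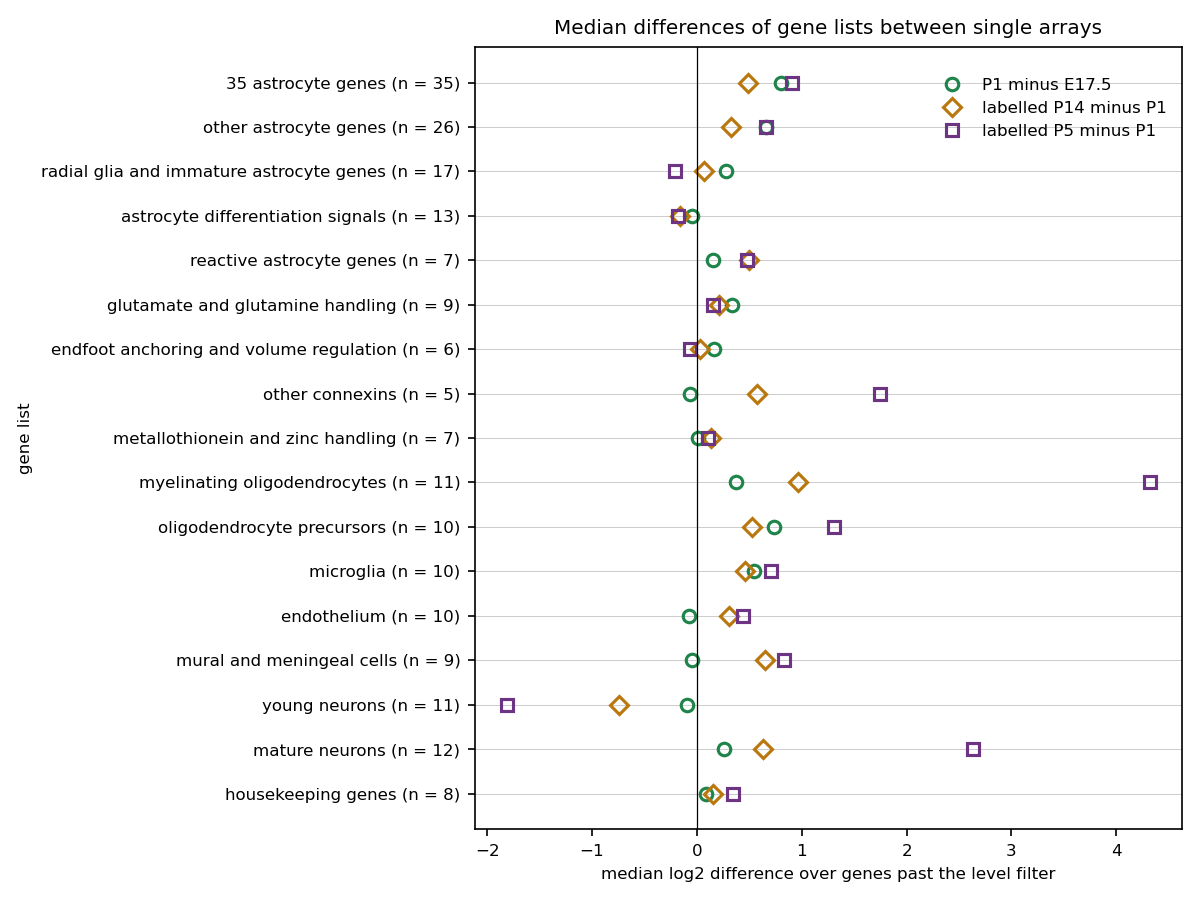
Median log2 difference (horizontal axis) over the genes of each list past the level filter, with their number in brackets (vertical axis); circles are P1 minus E17.5, diamonds the P14-labelled array minus P1, squares the P5-labelled array minus P1, each between single arrays. The 35 astrocyte genes have medians of 0.80, 0.49 and 0.91, while those of the myelin genes are 0.37, 0.96 and 4.32. The 0.91 becomes −0.035 centred on the median level of housekeeping genes, and 0.62 on those genes' own deviations.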

How the data were processed

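RNA from 4 pools of pontine nucleus, 1 per age, was measured on 1 Affymetrix array each. Per the submitters' processing notes, the authors used Affymetrix Expression Console. What is not given in the sources used here is its version, its summary method and its normalisation. The deposited table has 1 value per probe set and array, on a log2 scale as judged by its range (1.84 to 14.72; array medians 7.89 to 7.94).

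Of 35556 probe sets, 21789 carried 1 symbol in the platform's gene table, 1621 carried several and 12146 were not named by it. Each of 19938 genes was read from its probe set with the highest mean. The filter kept 10901 genes whose highest array reached 8.41, the median of single-symbol probe sets. The symbols and identifiers of all 35 genes matched RefSeq, and RefSeq windows (GRCm38.p6) gave the promoters. Genes were counted at a log2 difference of 1, with no test, since each age had 1 array. Where the lower value lay under 8.41, no fold was given.

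The counting steps, run in Python 3.11.15 with pandas 2.3.3, were checked on simulated data. The genes and lists were chosen with earlier results of these data known. All 35 genes were named; of other lists, at most the 2 highest and the 2 lowest genes of a comparison could be. Alternatives varied the filter, probe set, scaling and thresholds.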

Additional observations from a re-analysis of the deposited data

How the results depend on the processing

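With 1 array per age, no depth or replicate limit could be measured, and signals under 8.41 gave inexact differences. No paired analysis was possible because each age had a single array. Removing or tightening the filter, other probe set rules and quantile normalisation left all counts within 1.5-fold and all medians within the probe set spread. At 1.5-fold, 23 genes were higher at P1 than at E17.5 and 16 on the P14-labelled array than at P1. With a share of 1/3, 19 risers were early; with 2/3, 3; on linear signals, 5; without the P5-labelled array (chosen after seeing the data), 18. Centring on the median level of 8 housekeeping genes left 7 genes 2-fold higher for P5 from P1 (1.76% of all genes) and 2 for P14 from P1 (0.317%). It left 1 for P14 from P5 (15.2%) and 14 for P5 from E17.5 (2.54%), and 11 highest on the P5-labelled array. The medians were then −0.035 (P5 from P1), 0.13 (P14 from P1), 0.16 (P14 from P5), 0.76 (P5 from E17.5) and 0.82 (P14 from E17.5), and 12 of 17 risers were early, 6 of them among the 11. Centring on the same genes' own deviations, added after seeing the data, gave 0.62 (P5 from P1), −0.20 (P14 from P5), 1.39 (P5 from E17.5) and 1.10 (P14 from E17.5), with all genes at −0.32 for P5 from P1. With it 14 genes were 2-fold higher for P5 from P1, 22 were highest on the P5-labelled array and 10 of 23 risers were early. No 2-fold difference in a single gene turned its sign under the scalings and probe set rules run. This covered P1 from E17.5, P5 from P1 and P14 from P1. Housekeeping centring could hardly have turned one, because its largest shift there, for P5 from P1, was about the size of the threshold. Sizes did change: for P5 from P1, Mlc1 went from 1.05 to 0.035 under that centring. The lack of turned signs is therefore no measure of stability.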

Other observations

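Of 19 genes on the array that mark reactive astrocytes after injury, 7 passed the level filter, which 54.7% of all genes passed. None of the 7 was 2-fold higher at P1 than at E17.5, but only 0.826% of all genes were, so this says little. Gfap and Serpina3n, counted in the main astrocyte set, are not in this list. At P1 they were higher than at E17.5 by 2.7 and 1.4, from levels under 8.41, where differences are inexact. Hspb1, a small heat shock protein, stood at 8.26, 8.06, 8.78 and 10.19 on the arrays labelled E17.5, P1, P5 and P14, and S100a10, an annexin partner, at 9.92, 10.68, 11.03 and 11.57. Both were highest on the P14-labelled array. Emp1, a membrane protein, read 9.90, 10.29, 8.98 and 10.24. The list's medians were 0.15 for P1 from E17.5 and 0.54 for P14 from P5, and without the filter the second was −0.02.

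A probe set shared by Cldn10 and Dzip1 was not used for Cldn10; it stood at 10.81, 11.07, 10.30 and 11.26, lowest on the P5-labelled array, where both probe sets of Cldn10 alone were highest.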
